A study of Mus musculus with 8 samples.

Results

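Small leucine-rich proteoglycans are secreted proteins of the extracellular matrix. The 10 genes described here, Dcn, Bgn, Aspn, Lum, Fmod, Kera, Prelp, Ogn, Chad and Podn, were chosen by gene symbol, and each had 1 row in the deposited table. They are 10 of 35494 symbols, and all 10 were among the 14112 genes with enough counts to test. Their mRNA was measured by bulk RNA sequencing in the quadriceps of 8 wild-type (WT) male C57BL/6 mice aged 8 weeks at the start, 1 library per mouse. In 4 mice (scMC38), 1.0 M MC38 cells, a mouse colorectal cancer line, had been placed under the skin, and the other 4 (control) had received PBS alone. Muscle was taken after 28 days. The comparison asks how the muscle of mice bearing this tumour, for which the series title names a mild cachexia, differs from that of mice without it.

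Each of these proteins has a core of leucine-rich repeats that curves into an arc and binds collagen, and many carry chains of chondroitin, dermatan or keratan sulfate. They set the spacing and width of collagen fibrils, and several also bind growth factors such as TGF-beta. In skeletal muscle they are made mainly by fibroblasts of the connective tissue sheaths and, for several members, by tendon cells. The family is sorted into classes by sequence: Dcn (decorin), Bgn (biglycan) and Aspn (asporin) belong to class I, and Lum (lumican), Fmod (fibromodulin), Kera (keratocan) and Prelp (prolargin) to class II. Ogn (osteoglycin, also called mimecan) is in class III, Chad (chondroadherin) in class IV and Podn (podocan) in class V.

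Many members lie beside each other in the genome. In the RefSeq annotation of GRCm38.p6, Dcn, Lum, Kera and the related gene Epyc follow each other among the protein-coding genes of chromosome 10. Aspn and Ogn lie on chromosome 13 in the row Ecm2, Aspn, Omd, Ogn, all of this family or close to it. Prelp and Fmod are neighbours on chromosome 1, beside Optc. Bgn on chromosome X, Podn on chromosome 4 and Chad on chromosome 11 stand apart from other members. The RefSeq promoter table held 8 of the 10 members, with no entry for Dcn or Lum. Upstream sequence is shown for 3 members that were below every control in all tumour-bearing mice (Kera, Aspn, Podn) and for Chad, the most variable member. Each is the 250 bases before the annotated start, 5′ to 3′ on the gene's strand, with capitals marking the motifs TATAAA and GGGCGG on either strand. For Podn the first of 2 annotated starts is shown.
Kera, GRCm38.p6 chr10:97606955-97607204, plus strand: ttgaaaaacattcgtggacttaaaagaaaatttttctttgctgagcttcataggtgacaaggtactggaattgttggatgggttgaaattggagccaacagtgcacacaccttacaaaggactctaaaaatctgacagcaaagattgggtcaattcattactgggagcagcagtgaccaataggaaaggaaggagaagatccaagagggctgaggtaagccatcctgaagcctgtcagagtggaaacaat
Aspn, GRCm38.p6 chr13:49544193-49544442, plus strand: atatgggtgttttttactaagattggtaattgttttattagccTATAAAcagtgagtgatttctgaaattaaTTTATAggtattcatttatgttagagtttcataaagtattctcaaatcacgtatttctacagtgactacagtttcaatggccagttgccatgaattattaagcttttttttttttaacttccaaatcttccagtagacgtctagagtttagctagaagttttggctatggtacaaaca
Podn, GRCm38.p6 chr4:108031955-108032204, minus strand: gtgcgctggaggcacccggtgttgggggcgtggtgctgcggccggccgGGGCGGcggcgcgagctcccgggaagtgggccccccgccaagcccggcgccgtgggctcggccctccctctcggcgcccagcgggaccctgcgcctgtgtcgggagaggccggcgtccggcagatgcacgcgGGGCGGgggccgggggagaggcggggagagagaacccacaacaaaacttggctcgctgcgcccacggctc
Chad, GRCm38.p6 chr11:94564797-94565046, plus strand: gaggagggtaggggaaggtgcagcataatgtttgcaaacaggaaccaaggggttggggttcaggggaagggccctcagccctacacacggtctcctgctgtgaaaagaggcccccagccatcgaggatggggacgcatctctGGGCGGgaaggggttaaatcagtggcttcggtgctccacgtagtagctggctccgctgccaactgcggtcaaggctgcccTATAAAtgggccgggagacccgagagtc
These windows differ in composition: G and C make up 42.4% of the bases for Kera, 30% for Aspn, 78% for Podn and 60.4% for Chad, against a median of 52.4% over all 32851 promoters in the table. TATAAA, the core of the TATA box, was found upstream of 3 of the 8 members (Ogn, Aspn, Chad), and in 12.4% of all promoter windows of the same length. In Chad its first base lay 28 bases before the start. The matches lay further off in Aspn, beginning 207 and 178 bases before the start, and in Ogn, beginning 229 and 227 bases before it. GGGCGG, the GC box, was found for Bgn, Podn and Chad, against 32.7% of all windows. TGANTCA, the AP-1 motif, matched 0 of 8 members (6.75% of all windows), and GGAATG, the TEAD motif, matched Ogn alone (12.6%). The Kera window held none of these 4 motifs.

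Total counts were between 50.5 and 62.1 M per library. Acta1, skeletal actin, was abundant in every library, between 24367 and 35710 CPM (counts per M counts of a library, scaled between libraries by TMM). The libraries scMC38 1 and 3 stood apart by mRNA of other tissues. The bone list, of which 5 of 10 genes were tested, summed to 86.0 and 551 CPM in scMC38 1 and 3, to 7.83 and 11.2 CPM in scMC38 2 and 4, and to between 15.02 and 37.2 CPM in controls. Ibsp, bone sialoprotein, was at 40.6 and 137 CPM in scMC38 1 and 3, at 1.4 CPM in scMC38 4, and at 0 in scMC38 2 and 3 of 4 controls, while Bglap2 and Mepe were at 0 in all controls. The cartilage list, of which 4 of 10 were tested, summed to 67.0 and 75.9 CPM in scMC38 1 and 3, to 3.86 and 3.62 CPM in scMC38 2 and 4, and to between 3.00 and 4.24 CPM in controls, where Col10a1, Matn1 and Snorc were at 0. The marrow and neutrophil list summed to 466 and 4213 CPM in scMC38 1 and 3. It summed to 8.72 and 28.5 CPM in scMC38 2 and 4, also above every control (between 0.51 and 6.70 CPM). Mitochondrial transcripts took 24.3% and 29.7% of counts in controls 1 and 2, and between 14.4% and 18.9% elsewhere. Control 4 was low in oxidative fibre genes, with the myosin Myh2 at 9.43 CPM (between 84.8 and 2296 CPM elsewhere) and myoglobin, Mb, at 192 CPM (between 650 and 4409 CPM elsewhere). Its adipocyte list summed to 1181 CPM, against 315 to 378 CPM in the other controls and 426 to 765 CPM in scMC38. Counts over the 10 members are also given without these libraries, and list medians without scMC38 1 and 3.

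Levels between genes were compared as CPM divided by the longest protein-coding transcript in kilobases. Dcn led in controls, with 352 ± 51.8 CPM per kb (SD, n = 4). Fmod (49.5 ± 27.9), Bgn (36.2 ± 2.11) and Ogn (34.4 ± 8.08) followed, and their ranges over the 4 mice overlapped. Prelp (18.5 ± 3.80) and Lum (15.5 ± 0.613) came next and overlapped each other, as did Aspn (10.9 ± 1.02) and Chad (7.59 ± 5.28). The control range of Chad, from 2.31 to 14.9, also overlapped those of Prelp and Lum. Kera (6.95 ± 3.59) and Podn (4.16 ± 0.581) had the lowest control means, but the range of Kera, from 3.95 to 11.8, overlapped those of Aspn, Chad and Podn, and the lowest single control value was 2.31 CPM per kb, for Chad. In scMC38, Dcn was again first and Kera, at 1.64 ± 0.631 CPM per kb, was last. Chad moved from the eighth to the third place by mean, at 34.5 ± 38.6 CPM per kb, with a spread larger than its mean. Lum, Bgn and Aspn had narrow control ranges, while Fmod, Kera and Chad varied widely from mouse to mouse.

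No member passed the test over all genes with all 8 libraries, although 8 of 10 had a negative log2 fold change (scMC38 minus control), where 49.8% of all genes did. Kera, Lum, Aspn and Podn were below every control in all 4 scMC38 libraries, with Kera furthest, at 0.237 of the control level. Dcn, Ogn, Fmod and Prelp overlapped the controls. Bgn and Chad had higher means in scMC38, with their highest levels in scMC38 1 and 3. By edgeR's quasi-likelihood test with an adjusted p under 0.05, 0 of 10 members were called, where 1.2% of the 14112 genes were. At an unadjusted p under 0.05, 4 members were lower and 0 higher, where 9.77% of all genes were lower. Without overlap between groups, 4 of 10 were lower, where 6.45% of all genes were, and 0 were higher, where 6.82% were. Without controls 1 and 2 the count of members below all controls was again 4, where 12.8% of genes were. That fit called 0 members and, over all genes, 0 higher and 0 lower, so its calls say nothing about the members. Without control 4, 0 members were called, where 47 of 14290 genes were called higher and 52 lower. The median log2 fold change of the members was then -0.45. DESeq2 called 4 members lower (Kera, Lum, Aspn, Podn), where it called 4.23% of genes lower. The median log2 fold change of the 10 was -0.49, beside 0.00087 over all genes tested. In whole muscle, fewer matrix-producing cells and less mRNA per cell cannot be told apart.

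**Figure D1:**
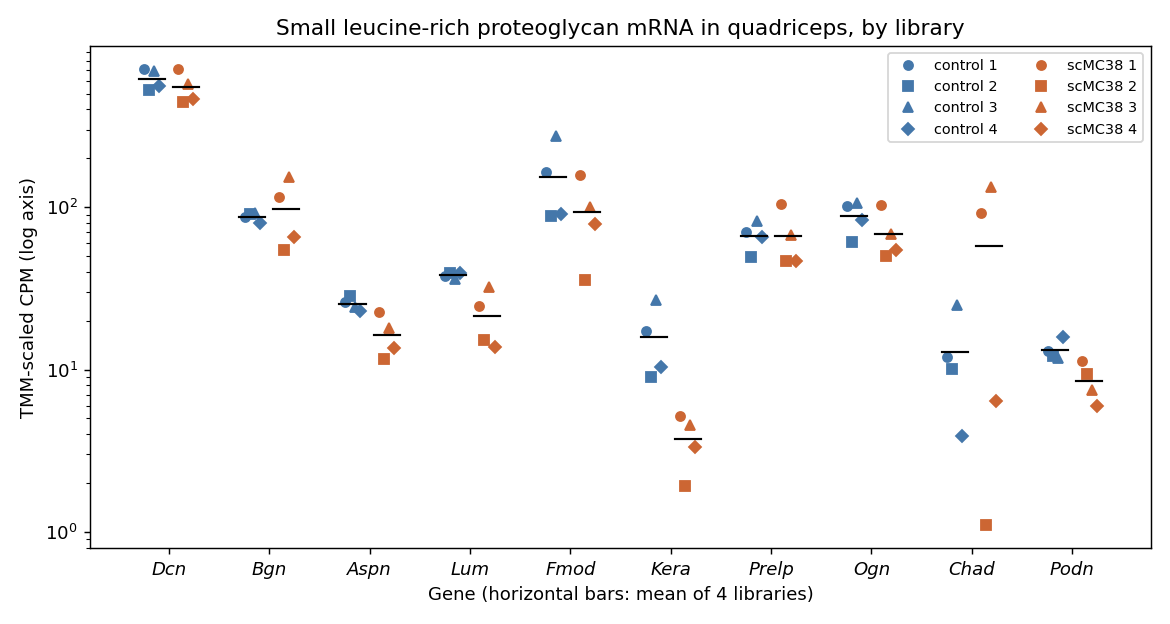
TMM-scaled CPM on a log axis for each of the 10 genes, with 1 point per library (blue, 4 controls; orange, 4 scMC38; symbols mark the replicate number) and bars at the group mean. The orange points of Kera, Lum, Aspn and Podn all lie under the blue ones, and those of Chad spread from 1.1 to 132 CPM.

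In class I, Dcn, which caps the growth of collagen fibrils and can bind TGF-beta and myostatin, stood at 706, 526, 689 and 557 CPM in controls 1 to 4. In scMC38 1 to 4 it stood at 712, 442, 573 and 463 CPM. The lowest 2 libraries of the 8 were scMC38 2 and 4, and the highest was scMC38 1, so the groups overlapped (log2 fold change -0.18, SE 0.18, edgeR adjusted p = 0.597). Bgn, the closest relative of decorin, which also binds sarcoglycans at the muscle membrane, stood at 87.3, 90.4, 91.9 and 80.4 CPM in controls. It was at 115, 54.7, 155 and 65.4 CPM in scMC38. No scMC38 library fell inside the narrow control range: scMC38 1 and 3 were above it and 2 and 4 below it. The log2 fold change of Bgn was 0.16 (SE 0.30, adjusted p = 0.791) with a 95% interval from -0.52 to 0.83, and -0.16 without scMC38 3. Aspn, which lacks the sugar chains of its class and carries a run of aspartates, was at 26.2, 28.3, 24.2 and 22.8 CPM in controls and at 22.6, 11.6, 18.0 and 13.6 CPM in scMC38. All 4 tumour-bearing mice were below all controls, scMC38 1 by a small margin (log2 fold change -0.63, SE 0.19, edgeR adjusted p = 0.129).

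In class II, Lum, a keratan sulfate proteoglycan needed for ordered fibrils in cornea and skin, was nearly constant in controls, at 37.7, 39.2, 36.0 and 39.1 CPM. In scMC38 it was at 24.5, 15.2, 32.5 and 13.7 CPM. The groups did not overlap, and scMC38 3 came closest to the controls (log2 fold change -0.82, SE 0.25, edgeR adjusted p = 0.126, unadjusted p = 0.0100). Kera, first known from the cornea and also made by tendon cells, stood at 17.2, 9.01, 26.9 and 10.3 CPM in controls. In scMC38 it stood at 5.18, 1.91, 4.54 and 3.35 CPM, so that even the highest tumour-bearing mouse was below the lowest control. Its log2 fold change of -2.08 (SE 0.41, 95% interval -3.02 to -1.14) was the lowest among the members, with an edgeR adjusted p of 0.0568, and it ranked 196 of 14112 genes by p. Over the 8 fits that leave out 1 library its value lay between -2.27 and -1.70, with adjusted p from 0.0643 to 0.163.

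Fmod, which binds the same region of collagen as lumican and is abundant in tendon, was at 165, 88.7, 273 and 90.2 CPM in controls and at 157, 35.7, 101 and 78.4 CPM in scMC38. Control 3 was far above the others and scMC38 2 far below, and the groups overlapped (log2 fold change -0.73, SE 0.49, edgeR adjusted p = 0.418). Without control 3 its value was -0.30, without scMC38 2 it was -0.46, and without scMC38 1 it was -1.11. Prelp, which links collagen to the basement membrane, was at 70.1, 49.3, 82.5 and 65.2 CPM in controls and at 104, 46.6, 67.3 and 46.5 CPM in scMC38. The value of Prelp was near 0, at -0.01 (SE 0.27, adjusted p = 0.986), and its 95% interval ran from -0.63 to 0.61.

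Among the other classes, Ogn, a fibril-associated protein of connective tissue and bone, was at 102, 61.0, 107 and 83.5 CPM in controls and at 103, 49.7, 68.2 and 54.4 CPM in scMC38. Here scMC38 2 and 4 were below every control and scMC38 1 was level with the high controls (log2 fold change -0.36, SE 0.25, edgeR adjusted p = 0.443). Podn, a class V member known to restrain smooth muscle growth, was at 12.96, 12.1, 11.8 and 15.8 CPM in controls and at 11.4, 9.37, 7.52 and 5.97 CPM in scMC38. The groups of Podn did not overlap, with scMC38 1 just under control 3 (log2 fold change -0.62, SE 0.19, edgeR adjusted p = 0.131). Unlike most members, Podn was lowest in scMC38 4 and second lowest in scMC38 3. Chad, a cartilage and tendon protein that binds collagen and integrins, was at 12.0, 10.1, 25 and 3.88 CPM in controls. In scMC38 it was at 91.9, 1.1, 132 and 6.38 CPM: scMC38 1 and 3 were above every control and scMC38 2 below all of them. Its log2 fold change of 2.19 had an SE of 1.23 (edgeR adjusted p = 0.339, 95% interval -0.63 to 5.0).

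For most members scMC38 2 and 4 were lower than scMC38 1 and 3. In scMC38 2 all 10 members were below every control, and in scMC38 4 this held for 9, the exception being Chad. In scMC38 1 and in scMC38 3 it held for 4 members each. Above every control were 4 members in scMC38 1, 2 in scMC38 3, and 0 in scMC38 2 and in scMC38 4. The share of all genes below or above every control in a single library was not computed, so these counts have no baseline. The lowest value of the 8 libraries was in scMC38 2 for 7 members and in scMC38 4 for 3. Summed over the 10 genes, the level was 668 and 750 CPM in scMC38 2 and 4, 1348 and 1159 CPM in scMC38 1 and 3, and between 914 and 1367 CPM in controls. Chad and Bgn were highest in scMC38 1 and 3, the libraries with bone and cartilage mRNA. So was Omd, a bone-expressed relative, at 12.0 and 17.8 CPM against 1.44 to 3.13 CPM elsewhere. The part of bone and cartilage mRNA in the levels of Chad, Bgn, Omd or any other member was not tested.

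Without scMC38 1 and 3, all 10 members had a negative log2 fold change, with a median of -0.88, beside -0.01 over all genes. In scMC38 2 and 4 alone, 9 of 10 members were below every control, where 16.2% of all genes were. EdgeR then called Lum (log2 fold change -1.37, SE 0.09, adjusted p = 0.0160) and Aspn (-0.99, SE 0.12, adjusted p = 0.0359) lower, 2 of 10 members, where 0.271% of genes were called lower. At an unadjusted p under 0.05, 8 members were lower, where 9.27% of genes were. The sign turned for Bgn (-0.52, SE 0.11, adjusted p = 0.0822) and Chad (-1.75, SE 0.95, adjusted p = 0.381). Kera was at -2.57 (SE 0.57) with an adjusted p of 0.103, so it was as low without these libraries but not called. This fit rests on 2 tumour-bearing mice. The libraries left out had the higher summed member levels in scMC38 (1348 and 1159 CPM), so lower values follow in part from that choice. The p-values of this fit are therefore no separate test of the members. The count of members below every control was added after the data were seen.

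**Figure D2:**
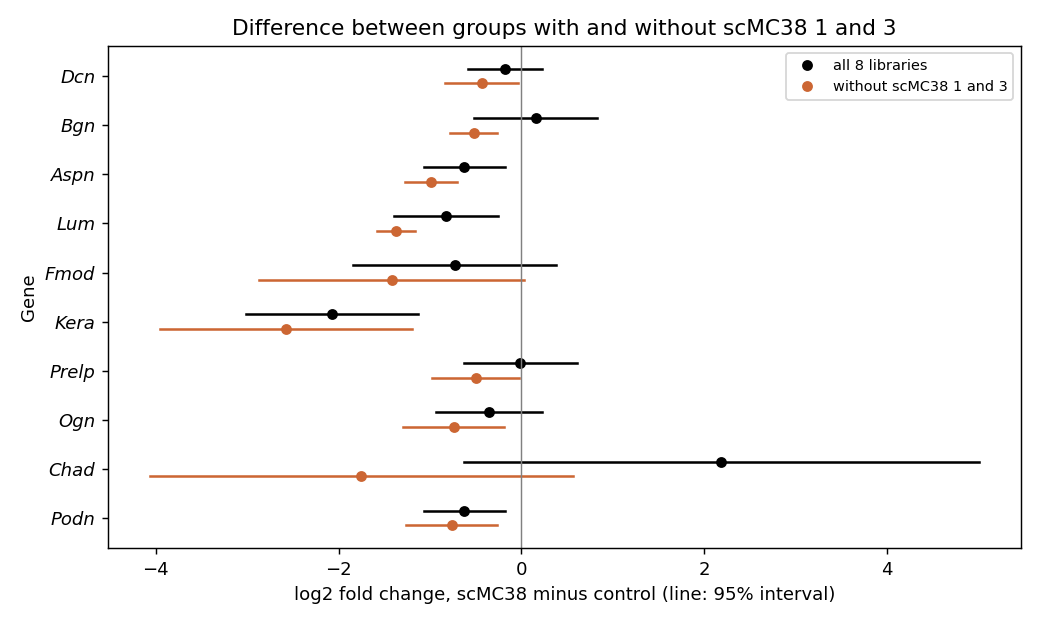
Log2 fold change of each gene, scMC38 minus control, with its 95% interval from edgeR, over all 8 libraries (black) and without scMC38 1 and 3 (orange). Every orange point lies below 0, and Bgn and Chad change side between the fits.

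Tendon cells and fibroblasts are known sources of these proteoglycans, and their markers were set beside the members. The tendon list (10 genes, all tested) summed to between 116 and 296 CPM in controls and to 217, 46.6, 182 and 102 CPM in scMC38 1 to 4. Control 3 was highest for this list and for Fmod, Kera and, among controls, Chad, and scMC38 2 was lowest for the list and for these 3 members. Of the list 0 genes were called by edgeR and 3 were lower at an unadjusted p under 0.05, where 9.77% of all genes were. Tnmd, tenomodulin, a surface protein of tendon cells, was below every control in all scMC38 libraries (log2 fold change -1.90, SE 0.57, edgeR adjusted p = 0.123), and so was Ptx4. Comp, a tendon and cartilage matrix protein, was at 42.6 and 39.1 CPM in scMC38 1 and 3 against at most 16.6 CPM in controls. The fibroblast list (12 genes, all tested) summed to between 1411 and 2139 CPM in controls and to between 1114 and 1970 CPM in scMC38. Most of this sum was Gsn alone, at 850.5 to 1419 CPM in controls and 801 to 1439 CPM in scMC38. Of its genes 11 had a negative value, 6 were lower at an unadjusted p under 0.05, 3 lay below every control in all scMC38 libraries, and 1 was called: Smoc2, a matrix protein gene, fell by 0.70 on the log2 scale (SE 0.13, adjusted p = 0.0479). That call held in 1 of the 8 fits without 1 library, the one without scMC38 3, with adjusted p up to 0.129 in the others. Without scMC38 1 and 3, 2 of the 12 were called lower, Smoc2 and the microfibril gene Mfap5, and the medians of the fibroblast and tendon lists were -0.79 and -1.78 against -0.47 and -0.54 with all libraries. Of 10 muscle fibre genes edgeR called 0, with 5 positive, 5 negative and 0 at an unadjusted p under 0.05 (median 0.0017). Of 10 macrophage genes all were positive, 6 at an unadjusted p under 0.05 (median 1.03), where 11.2% of all genes were higher at that level. Of the smooth muscle list 3 of 8 were lower at that level (median -0.41), of the nerve sheath list 4 of 8 (median -0.62), of the endothelial list 1 of 8 with 2 higher (median -0.02), and of the adipocyte list 0 of 8 (median -0.07). EdgeR called 0 genes of these lists. Without scMC38 1 and 3 the macrophage median was 0.29 with 1 of 10 negative, and the medians were -0.48 for smooth muscle, -0.69 for nerve sheath, -0.04 for endothelial, 0.05 for adipocyte and 0.18 for muscle fibre genes. Of the marrow and neutrophil list 6 genes were tested and 0 called, with a median of 8.66 over all libraries. Its median was 2.12 without scMC38 1 and 3, with 1 of 6 negative. The part of these cell types in the members' levels was not tested.

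**Figure D3:**
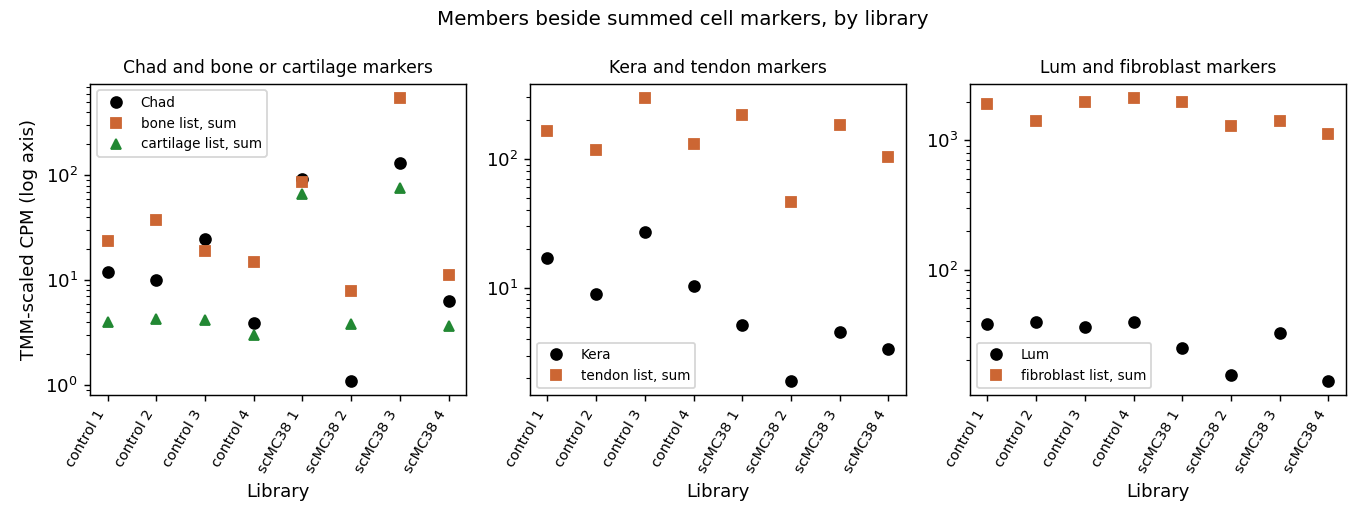
TMM-scaled CPM on log axes in each of the 8 libraries for Chad beside summed bone and cartilage markers (left), Kera beside summed tendon markers (middle) and Lum beside summed fibroblast markers (right). Chad is highest in scMC38 1 and 3, as are the bone and cartilage sums, while Kera is low in all 4 scMC38 libraries. Most of the fibroblast sum is Gsn.

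The make-up of the family within each library was compared next. Per length of the longest protein-coding transcript, Dcn held between 61.5% and 67.8% of the summed level of the 10 genes in controls. In scMC38 1 it held 62.1%, within the control range, and in scMC38 3 it held 57.0%, below it. In scMC38 2 and 4 it held 75.4% and 71.5%, above every control. Kera held between 0.888% and 1.85% in controls and between 0.251% and 0.399% in scMC38, so its share was lower in each tumour-bearing mouse. Chad held 8.38% and 13.8% in scMC38 1 and 3 and at most 2.33% in any other library. Ratios of 2 members within a library do not depend on scaling between libraries, and 3 were tested. The log2 count ratio of Aspn to Dcn was -4.60 ± 0.27 in controls and -5.08 ± 0.13 in scMC38 (SD, n = 4). Each scMC38 value was below each control, which gives the smallest p the 70 assignments allow (two-sided exact permutation p = 0.0286, adjusted over 3 ratios p = 0.0857). The ratio of Bgn to Dcn was -2.81 ± 0.20 and -2.59 ± 0.49 (exact permutation p = 0.571, adjusted p = 0.686), and that of Fmod to Lum 1.86 ± 0.84 and 2.01 ± 0.69 (exact permutation p = 0.686, adjusted p = 0.686).

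**Figure D4:**
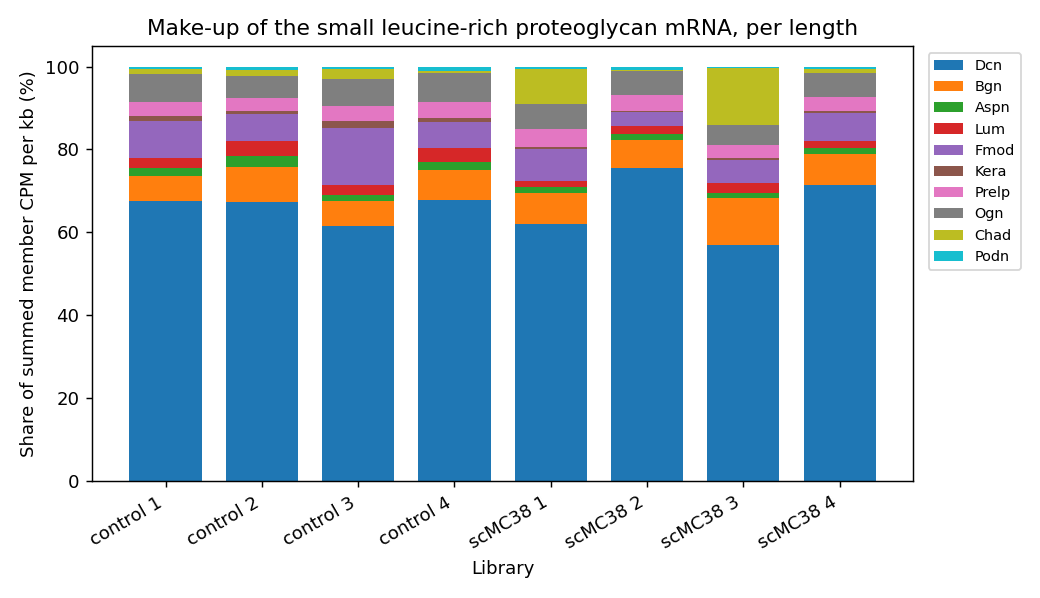
Share of each gene in the summed CPM per kb of the 10 genes, as stacked bars from 0 to 100% for each of the 8 libraries. Dcn fills most of every bar, and Chad is widest in scMC38 3 (13.8%) and scMC38 1 (8.38%).

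Relatives outside the 10 gave few tested genes. Of 8 further family members, 4 were tested and 0 called, with Ecm2, the neighbour of Aspn, at -0.58 (SE 0.23, edgeR adjusted p = 0.203) and Omd at 1.73 (SE 0.75, adjusted p = 0.234). At an unadjusted p under 0.05 these were 1 lower and 1 higher. The 8 leave out Nepn, which is counted below among the other leucine-rich repeat genes. Nepn was at 1.45 (SE 0.37, edgeR adjusted p = 0.0920) and above every control in all scMC38 libraries. The direction of Omd turned without scMC38 1 and 3, to -0.57 (adjusted p = 0.389), Ecm2 was at -0.92, and 4 of 5 tested were negative, with a median of -0.57 against 0.16 with all libraries. The filter was rerun for that fit, so these medians cover 5 and 4 genes and are not of the same set. Epyc, next to Kera on the chromosome, was at most 0.127 CPM in any library.

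Genes that build the sugar chains were not called in either direction by edgeR with all 8 libraries. Of those named below, Chpf2, Chst11, Chst2 and B4galt1 were each called in 1 alternative fit. Of 9 linkage and sulfate donor genes, 7 had a negative value (median -0.12), led by the xylose kinase Fam20b (-0.22, adjusted p = 0.289) and the xylosyltransferase Xylt1 (-0.38, adjusted p = 0.356), with 0 at an unadjusted p under 0.05. Of the 9, 8 were negative without scMC38 1 and 3 (median -0.19). Of 15 tested chondroitin and dermatan sulfate enzymes, 11 were positive (median 0.17) and 0 were called, 2 higher and 1 lower at an unadjusted p under 0.05. Chpf2, a chondroitin polymerizing factor, was at 0.64 (SE 0.16, adjusted p = 0.0875) with no overlap between groups, and the sulfotransferase Chst11 at 1.03 (SE 0.34, adjusted p = 0.145). The direction of the list turned without scMC38 1 and 3: 10 of 15 were negative, with a median of -0.25, and Chpf2 and Chst11 were at 0.59 and 0.64. Of 5 tested keratan sulfate enzymes, 4 were positive (median 0.10). The sulfotransferase Chst2 (1.42, SE 0.33, adjusted p = 0.0783) and the galactosyltransferase B4galt1 (0.42, SE 0.10, adjusted p = 0.0845) were above every control in all scMC38 libraries, again without a call by edgeR, and 2 were higher at an unadjusted p under 0.05. This list turned too without scMC38 1 and 3, with 3 of 5 negative and a median of -0.04, where Chst2 was at 0.74 and B4galt1 at 0.39.

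Proteases that process or cut these proteoglycans included 2 calls among 12 tested, both higher, where 0.737% of all genes were called higher. At an unadjusted p under 0.05, 4 of the 12 were higher and 1 lower, where 11.2% and 9.77% of all genes were. Tll1, a tolloid-like protease of the family that removes the biglycan propeptide, was at 0.921, 0.646, 0.960 and 0.656 CPM in controls and at 2.16, 2.20, 3.10 and 2.25 CPM in scMC38. It rose by 1.61 on the log2 scale (SE 0.23, edgeR adjusted p = 0.0273). Adamts4, an aggrecanase, was at 0.603, 0.812, 0.50 and 0.747 CPM in controls and at 1.74, 2.42, 2.29 and 1.26 CPM in scMC38. It rose by 1.53 (SE 0.28, edgeR adjusted p = 0.0449). Both genes were low in level, and all scMC38 libraries lay above all controls. With 1 library left out, Tll1 was called only without scMC38 3 (adjusted p up to 0.0963 otherwise) and Adamts4 only without scMC38 4 (up to 0.157). Without scMC38 1 and 3 their values were 1.5 (adjusted p = 0.0597) and 1.49 (adjusted p = 0.0956), and 2 other genes of the list were called lower, the gelatinase Mmp2 (-1.23, adjusted p = 0.0359) and the procollagen protease Bmp1 (-1.06, adjusted p = 0.0403). With all libraries Mmp2 was at -0.81 (edgeR adjusted p = 0.0933) and below every control in each scMC38 library, and Bmp1 was at -0.35 (adjusted p = 0.591). The median of the 12 was 0.08 with all libraries and -0.20 without scMC38 1 and 3.

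Growth factors and other soluble partners (13 tested, 10 positive, median 0.29, 0 called) were led by the complement genes C1qb (1.12, SE 0.32, edgeR adjusted p = 0.114) and C1qa (0.95, SE 0.32, adjusted p = 0.152), both macrophage genes, with 2 higher at an unadjusted p under 0.05. Of the 13, 8 were negative without scMC38 1 and 3 (median -0.0066), and C1qb and C1qa were at 0.67 and 0.46. Receptors and surface partners (19 tested, median 0.05, 0 called, 1 higher and 2 lower at an unadjusted p under 0.05) were led by the VEGF receptor gene Kdr (-1.13, SE 0.28, adjusted p = 0.0865) and Cd14 (0.93, SE 0.32, adjusted p = 0.151). The receptors' median was -0.0061 without scMC38 1 and 3, where Kdr was at -0.99 and Cd14 at 0.46. Of 12 fibrillar collagens and their partners, 9 had a negative value and 3 a positive one. At an unadjusted p under 0.05, 6 were lower, where 9.77% of all genes were, and 5 lay below every control in all scMC38 libraries, where 6.45% did. EdgeR called 4 lower, where 0.468% of all genes were: Col3a1 fell by 1.96, Col5a3 by 1.48, Col6a2 by 1.41 and Col6a1 by 1.21 on the log2 scale (edgeR adjusted p = 0.0352, 0.0201, 0.0299 and 0.0485). The median of the 12 was -0.66, and -1.65 without scMC38 1 and 3, where all 12 were lower at an unadjusted p under 0.05 and 2, Col6a1 and Col6a2, were called. With 1 library left out, Col5a3 kept the call in 5 of 8 fits, Col6a2 in 3, and Col3a1 and Col6a1 only in that without scMC38 1, with adjusted p up to 0.131 otherwise. Col1a1, a chain of type I collagen, to which decorin binds, was at 2215 CPM in scMC38 3, at 134, 46.6 and 30.9 CPM in scMC38 1, 2 and 4, and between 114 and 234 CPM in controls.

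Other matrix proteoglycans (9 tested, 0 called, median -0.33, 1 higher and 1 lower at an unadjusted p under 0.05) were led by the basement membrane gene Hspg2, perlecan (-0.30, SE 0.10, edgeR adjusted p = 0.148). Prg4, the joint lubricant lubricin, was at 415 and 490 CPM in scMC38 1 and 3 and between 7.66 and 32.1 CPM elsewhere (3.44, SE 1.23, adjusted p = 0.167). The value of Prg4 turned to -0.81 without scMC38 1 and 3, and 9 of 10 tested genes of this list were negative (median -0.58). With the filter rerun, that fit tested 10 genes of the list instead of 9, so its median is of another set. Among 12 other leucine-rich repeat genes, Lrg1, an inflammation-induced glycoprotein, rose by 1.76 (SE 0.22, adjusted p = 0.0167) and Lgi4, a Schwann cell signal, fell by 0.97 (SE 0.17, adjusted p = 0.0383). Lgi4 was called in 0 of the 8 fits without 1 library (adjusted p from 0.0578 to 0.113), and Lrg1 lost its call without control 1, 2 or 3 (up to 0.0865). Without scMC38 1 and 3, Lrg1 (1.41, adjusted p = 0.0295) and the fibroblast gene Islr (-1.16, adjusted p = 0.0403) were called, and the median of the 12 was -0.55 against -0.27.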

How the data were processed

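Quadriceps RNA was isolated on RNeasy columns and sequenced as mRNA libraries (Universal Plus kit), per the labels' protocols. Salmon 1.10.3, fastp 1.0.1, FastQC 0.12.1, MultiQC 1.30, R 4.4.3 and the build GRCm39 appear in the submitters' processing notes. Annotation, strand setting and tool roles: not given in the sources used here. All values in the deposited file are estimated counts of each gene, made by the authors and unscaled for depth or length. Groups and replicate numbers came from sample titles, columns from library names in the descriptions. Counts were summed over 26 repeated symbols and rounded; 144 rows without a symbol (at most 0.00403% of a library) were left out. Total counts ran from 50.5 to 62.1 M, so the spread between mice limits precision more than counting error. Libraries of a group differed beyond counting noise (chi-square per degree of freedom at least 63.2).

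Testing used edgeR 4.0.16 in R 4.3.3 (filterByExpr, TMM, robust quasi-likelihood F test, no covariate, all 8 libraries), with Benjamini-Hochberg adjustment over 14112 genes and a threshold of 0.05. The standard error is that implied by F. The script was tested on simulated data. CPM are TMM-scaled. Ratios used counts plus 2 and exact permutation over libraries. Alternatives were DESeq2 1.42.0, other scalings and filters, the replicate number as a block, and libraries left out. All members are named. Of each other list, called genes (up to 4) or otherwise the 2 with the smallest p are named. Bglap2, Ibsp, Mepe, Col10a1, Matn1, Snorc, Comp, Col1a1, Acta1, Mb, Epyc, Nepn, Gsn, Mfap5, Mmp2, Bmp1 and Islr were chosen after their values were seen. Members and lists were chosen with earlier results of these data known. Transcript lengths are from GENCODE M21 (GRCm38), promoters from RefSeq (GRCm38.p6). Among protein-coding transcripts the longest was used. With the longest of any kind, Bgn and Ogn exchange places in the order of levels. Dcn stays first, but at 4692 instead of 1758 bases its control mean is 132 instead of 352 CPM per kb. Its share of the 10 genes is then lower, and was not computed.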

Additional observations from a re-analysis of the deposited data

How the results depend on the processing

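The 10 members were called higher in 0 of the fits tried. None was called lower in the fits without 1 library, with another scaling or filter, with the replicate block or without control 1 and 2 together, while 4 were called lower by DESeq2 and 2 without scMC38 1 and 3 together. Members below all controls in every scMC38 library numbered 9 without scMC38 1 and 3 (an alternative chosen after seeing the data). The members' median stayed negative in all alternatives, from -0.70 to -0.28 without 1 library. It was -0.88 without scMC38 1 and 3, and -0.37 with total counts, which moved the median of all genes by 0.11. Over all genes, 104 were called higher and 66 lower. The counts were 216 higher with total counts (80.9% of calls higher, against 61.2%), 69 higher with no filter, 829 higher and 597 lower with DESeq2, 25 and 39 without scMC38 1 and 3, and 0 and 0 without control 1 and 2 (where 1605 genes had an unadjusted p under 0.05). Without 1 library they ran from 1 to 59 higher and from 1 to 52 lower.

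Direction turned for Bgn (-0.52 without scMC38 1 and 3, and from -0.16, without scMC38 3, to 0.35 without 1 library), Chad (-1.75 without scMC38 1 and 3) and Prelp (0.11 with total counts, and between -0.32 and 0.12 without 1 library). Values of the other 7 members kept their sign in all 16 alternatives. The log2 ratio of Bgn to Dcn differed by 0.22 between groups, by -0.10 without scMC38 1 and 3, and by -0.0082 to 0.37 without 1 library; that of Fmod to Lum by 0.16 and by -0.072 to 0.51. Equal replicate numbers do not mark shared animals, and deviations of same-numbered libraries correlated between -0.28 and -0.0058. With the replicate block 0 genes were called higher and 1 lower, 0 of them members; the paired permutation cannot go below 0.125. The causes of these changes were not tested.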
